A study of Mus musculus with 4 samples.

Results

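Guanylate binding proteins (GBPs) and immunity-related GTPases (IRGs) are large GTP-hydrolysing proteins that cells make in response to interferon. GBPs assemble on the membranes around intracellular microbes and help to expose microbial products to the inflammasome. Effector IRGs such as Iigp1 load onto such vacuoles, and the regulatory IRGs Irgm1, Irgm2 and Igtp (also called Irgm3) sit on the cell's own membranes and hold the effectors in check. Transcription of both families is driven by interferon gamma, in part through IRF1, and also by type I interferons, and Irgm1 is known for a role in keeping haematopoietic stem cells (HSC) in a resting state.

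The genes described here were 10 listed members of both families: Gbp2, Gbp3, Gbp6, Gbp7, Gbp8, Gbp9, Igtp, Irgm1, Irgm2 and Iigp1. A probe set was taken for a member when the platform annotation gave that gene's symbol alone. This gave 13 probe sets for 9 of the 10 genes, out of 18193 genes with a value, and Gbp9 was not analysed here. The list was chosen by the log2 differences between the genotypes that some of these genes (Gbp6, Gbp8 and Gbp2) had already shown in these same arrays. The difference is therefore given for all members as a description, with no test. Where a gene had several probe sets, the one with the highest mean over the 4 arrays is the main value and the others are given beside it.

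The samples were 2 pools of HSC from Rb family deficient mice (genotype Rb -/- p130 -/- p107-/-) and 2 pools labelled wild type (genotype Rb +/+ p130 +/+ p107-/-), each hybridised to a mouse Affymetrix array. Loss of p107 (Rbl1) was therefore common to both groups, which differed by label in Rb (Rb1) and p130 (Rbl2). Adult mice of both groups received tamoxifen, and HSC in a KLS CD48- CD150+ sorting gate were isolated after 2 weeks and pooled from 3 mice per sample. The sources used here do not give the promoter that drove the recombinase, nor the strain, sex and exact age of the mice. Nothing states whether a mouse entered more than 1 pool, so spreads below are those between these pools.

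Over the whole series, array medians lay between 5.94 and 6.02 on the log2 scale. With 4 arrays the precision of any single value is low. For Rbl2 the deficient pools read 7.82 and 8.21 and the wild type pools 8.94 and 8.75, and for Rb1 they read 9.82 and 9.72 against 9.37 and 9.58. Rbl1, lost by label in both groups, still read lower in the deficient pools. It stood at 5.35 and 5.42 against 5.92 and 6.77 (log2 difference -0.96, SE 0.30). The labels do not say where these probe sets lie relative to the deleted exons, and the readings are therefore no check of the genotypes. The HSC markers Slamf1, Kit, Procr, Mecom, Hlf, Fgd5, Cd34, Meis1 and Gata2, 9 of 10 listed with a value, averaged 10.35 and 10.69 in deficient HSC and 10.97 and 10.91 in wild type HSC. Of these markers 8 of 9 were below 0 with a median log2 difference of -0.59, and the deficient pools lay below both wild type pools for 6, against 18.5% of all genes. The Y-linked genes Kdm5d, at 6.12 and 7.86 in deficient against 8.26 and 8.37 in wild type pools, and Eif2s3y (log2 difference -1.04) were lower in the deficient pools, while Xist lay between 12.7 and 13.3 in all 4. The part of the HSC markers and of the sex genes in the values below was not tested. In an exact permutation test, 2 pools against 2 cannot give a two-sided p below 0.333. By limma across all genes 0 of 18193 genes (0.0%) were higher and 0 (0.0%) lower at an adjusted p under 0.05, while at an unadjusted p under 0.05 there were 399 (2.19%) higher and 735 (4.04%) lower.

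The proximal promoters of some members are shown first, with their matches to 2 classical interferon elements. Promoters of 300 bases, from 250 before to 50 after the annotated start, were taken from RefSeq (build GRCm38.p6). Those used here covered 6 of the 10 genes, with a second start for Gbp3. The promoters of Gbp6, Gbp8, Gbp9 and Iigp1 were not examined, so the matches below do not describe the whole list. Each line below gives 100 bases, from 110 to 11 before the start, 5′ to 3′ on the gene's own strand. Capitals mark 2 kinds of match. The first is the core of the interferon-stimulated response element (ISRE) bound by IRF proteins, taken as GAAA, any 2 bases and GAAA, or on the other strand TTTC, any 2 bases and TTTC. The second is TTCNNNGAA, the gamma-activated site (GAS), which reads alike on both strands.
Gbp2, chr3:142620553-142620652, plus strand: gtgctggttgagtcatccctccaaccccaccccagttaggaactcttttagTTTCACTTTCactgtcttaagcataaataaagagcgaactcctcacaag
Gbp3, chr3:142559934-142560033, plus strand: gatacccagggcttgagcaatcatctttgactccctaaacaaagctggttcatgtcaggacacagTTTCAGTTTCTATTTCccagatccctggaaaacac
Gbp7, chr3:142530226-142530325, plus strand: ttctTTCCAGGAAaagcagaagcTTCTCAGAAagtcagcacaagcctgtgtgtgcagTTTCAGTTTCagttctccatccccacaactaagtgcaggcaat
Igtp, chr11:58199446-58199545, plus strand: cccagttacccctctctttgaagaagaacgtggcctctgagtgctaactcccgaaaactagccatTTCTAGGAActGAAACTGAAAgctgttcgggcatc
Irgm2, chr11:58214867-58214966, plus strand: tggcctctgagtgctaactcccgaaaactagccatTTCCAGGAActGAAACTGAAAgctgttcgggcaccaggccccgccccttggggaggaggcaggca
Irgm1, chr11:48871431-48871530, minus strand: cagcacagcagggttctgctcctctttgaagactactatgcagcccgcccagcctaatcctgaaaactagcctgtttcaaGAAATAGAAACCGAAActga

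All 6 genes shown held an ISRE core within these bases. Searched over the full 300 bases, 3.44% of all 32851 promoter entries held one, as did 6 of the 7 member entries used here. A GAS was present in 3 of the genes, Gbp7, Igtp and Irgm2, against 8.30% of all entries over 300 bases. Both elements together stood in 0.454% of all entries. In Gbp7 the ISRE core began 53 bases before the start and GAS matches began 106 and 87 bases before it. In Igtp and Irgm2 the GAS lay directly upstream of the ISRE core, beginning 45 and 75 bases before the start, and no ISRE match overlapped a GAS match. Gbp3 and Irgm1 each had 2 ISRE matches that overlap each other, and the second annotated start of Gbp3 had neither element. The promoters of the neighbouring genes Igtp and Irgm2 resembled each other, with 184 of 270 aligned bases identical (68.1%). The other pairs among these 6 genes had between 27.7% and 34.9% by the same ungapped alignment. A match is a description of the letters and does not show that a factor binds there.

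Every measured member had a lower mean in the Rb family deficient pools than in the wild type pools, with a median log2 difference of -0.69 over the 9 genes, or 1.61-fold. Over all genes the median difference was -0.00376 and 50.8% were below 0. The members' differences ran from -2.06 for Gbp6 to -0.25 for Irgm1. The deficient pools both lay below both wild type pools for 7 of the 9 members, and 18.5% of all genes did so. A difference of at least 2-fold lower was seen for 2 members, Gbp6 and Gbp8, and for 0.275% of all genes. These shares are given for reference only, since the list was made from this contrast. In bulk pools like these, fewer cells that express a gene and less RNA per cell cannot be told apart.

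**Figure D1:**
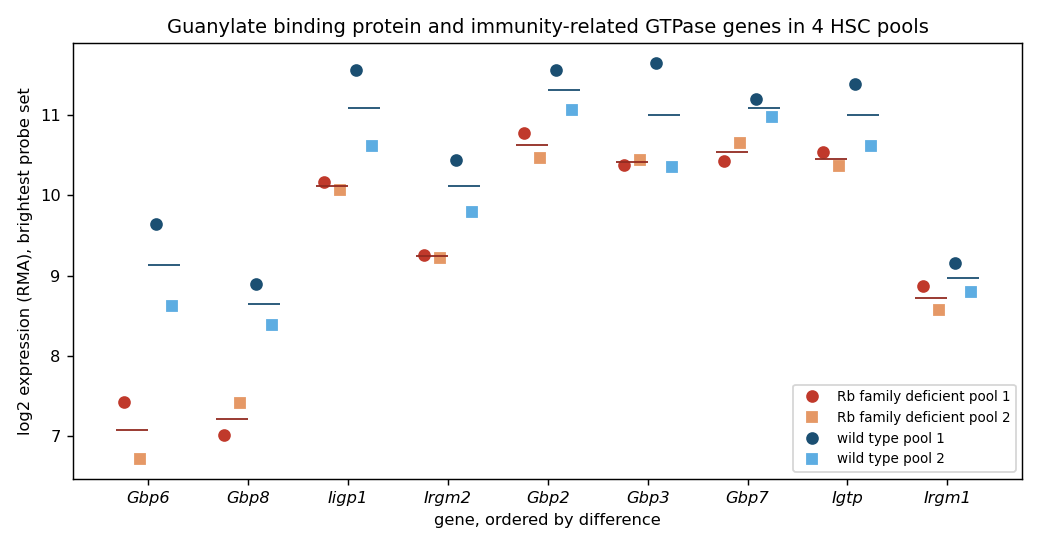
Log2 expression (vertical axis) of the brightest probe set of 9 GTPase genes (horizontal axis) in each of 4 HSC pools, with 1 point per pool and short lines at the group means. Wild type pool 1 is the highest point for every gene, and the deficient pools lie below both wild type pools except for Gbp3 and Irgm1.

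Among the GBPs, Gbp6 showed the widest gap. On the log2 scale the deficient pools read 7.43 and 6.71 and the wild type pools 9.64 and 8.62, which is 4.17-fold lower (difference -2.06, SE 0.41, with n = 2 in each group). The groups did not overlap, but the pools of each group also differed, by 0.72 in the deficient and 1.02 in the wild type group. The second Gbp6 probe set read 6.48 and 6.28 against 8.81 and 7.49, a difference of -1.78 (SE 0.44). By size of difference Gbp6 was 2nd from the lowest of all 18193 genes and Gbp8 9th.

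Gbp8, which lies in the same gene cluster as Gbp6 and next to Gbp9 in the RefSeq gene order, stood at 7.01 and 7.41 against 8.89 and 8.39, 2.70-fold lower (log2 -1.43, SE 0.24). The groups were separated by more than either group's own spread, which was 0.41 in the deficient and 0.51 in the wild type pools. A further probe set that the annotation assigns to Gbp8 together with a second gene was not used.

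The cluster that holds Gbp7, Gbp3 and Gbp2 on chromosome 3 showed smaller differences, with a median of -0.59 over the 3 genes. Gbp2, whose protein is anchored to membranes by a lipid tail, read 10.78 and 10.47 against 11.57 and 11.06, 1.61-fold lower (log2 -0.69, SE 0.23). Its main probe set has an _x_at name, which marks probes that can hybridise to other transcripts, and the gene-specific probe set differed by -0.74 (SE 0.20). For Gbp2 both probe sets thus separated the groups by a like amount.

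For Gbp7 the deficient pools read 10.43 and 10.65 and the wild type pools 11.21 and 10.98, 1.47-fold lower (log2 -0.56, SE 0.17). Its second probe set disagreed, since it read 10.64 and 10.44 against 10.83 and 10.46 and differed by -0.10 (SE 0.19), with overlapping groups. Gbp3 read 10.38 and 10.45 against 11.65 and 10.35, a difference of -0.59 (SE 0.42). Only wild type pool 1 was high for Gbp3. Wild type pool 2 lay just below both deficient pools, and without wild type pool 1 the difference turned to 0.06.

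Of the effector IRGs, Iigp1, which takes part in breaking pathogen vacuoles, read 10.16 and 10.07 with the Rb family deleted and 11.56 and 10.62 in wild type HSC, 1.96-fold lower (log2 -0.97, SE 0.32). Its second probe set, with a plain _at name beside the _a_at name of the main one, read 8.63 and 8.63 against 10.30 and 9.14. That was a difference of -1.10 (SE 0.38). The deficient pools agreed closely on this gene, while the wild type pools were 0.94 apart on the main probe set.

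The regulatory IRGs differed from each other in the size of the gap, with a median of -0.54. Irgm2 read 9.26 and 9.22 against 10.44 and 9.79, 1.83-fold lower (log2 -0.87, SE 0.24). Igtp, its neighbour with a similar promoter, read 10.54 and 10.37 against 11.39 and 10.62, 1.46-fold lower (log2 -0.54, SE 0.28). The deficient pools lay below both wild type pools for both genes, although for Igtp the gap to wild type pool 2 was only -0.16.

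Irgm1, the member with a known part in HSC, had the smallest difference. The deficient pools read 8.87 and 8.58 and the wild type pools 9.15 and 8.79, so the groups overlapped (log2 difference -0.25, SE 0.20). Like the windows of Gbp2 (log2 difference -0.69) and Gbp3 (-0.59), its promoter window matched the ISRE core but not the GAS. The relation of these matches to the differences was not tested. The direct comparison of Irgm1 with Irgm2 was not tested.

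Wild type pool 1 had the highest value of all 4 pools for 9 of the 9 measured members, against 26.0% of all genes. It exceeded wild type pool 2 by a median of 0.65, with a range from 0.23 for Gbp7 to 1.30 for Gbp3, where the median over all genes was -0.03. The deficient pools were closer to each other, with a median absolute distance of 0.22 against 0.65 between the wild type pools, and pool 1 minus pool 2 ran from -0.41 to 0.72. Against wild type pool 1 alone the deficient mean was lower by a median log2 value of -1.20, and against wild type pool 2 alone by -0.44. The deficient mean was still below wild type pool 2 for 8 of 9 members, as it was for 55.3% of all genes. Without wild type pool 1, Gbp6 (-1.55) and Gbp8 (-1.18) kept a difference of over 1, Irgm2 (-0.55), Iigp1 (-0.50), Gbp7 (-0.44) and Gbp2 (-0.44) stood between, and Igtp (-0.16), Irgm1 (-0.07) and Gbp3 (0.06) were near 0.

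**Figure D2:**
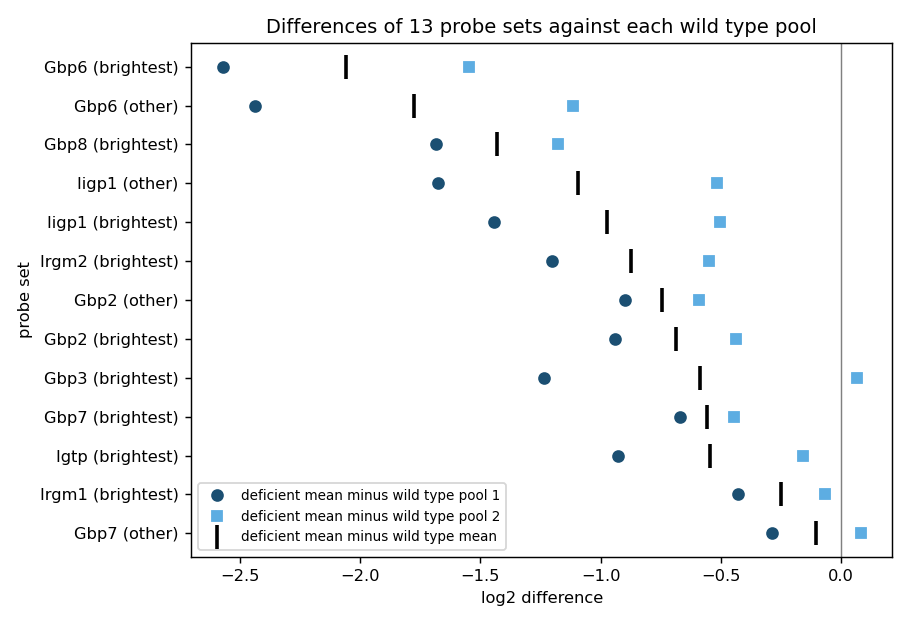
Log2 difference (horizontal axis) of the deficient mean from wild type pool 1 (circles), wild type pool 2 (squares) and the wild type mean (bars) for each of the 13 probe sets (rows). The circles lie left of the squares in every row, and the squares of Gbp3 (0.06) and of the second Gbp7 probe set (0.08) lie right of 0.

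Other measures also set wild type pool 1 apart. Of 8 marker lists for cell types outside the sorting gate, 6 had their lowest mean level in wild type pool 1. Mature neutrophil markers averaged 9.43 there against 10.91 and 10.09 in the deficient pools, with wild type pool 2 just below the latter, and 9 of 11 were above 0 at a median difference of 0.82. Erythroid markers averaged 7.62 there, 9.58 in wild type pool 2 and 9.32 and 8.30 in the deficient pools. Markers of T and NK cells, which make interferon gamma, averaged 5.52 and 5.76 in the wild type pools and 5.71 and 5.73 in the deficient pools, with 11 of 13 above 0 at a median difference of 0.04. Macrophage markers, from cells that express GBPs strongly, averaged 5.48 and 5.75 against 5.77 and 5.73, with 8 of 11 above 0 at a median of 0.09. B cell markers averaged 5.61 and 6.47 against 6.67 and 6.09, endothelial markers 5.39 and 5.66 against 5.78 and 5.64, dendritic cell markers 5.50 and 5.37 against 5.66 and 5.61, and megakaryocyte markers 9.10 and 9.11 against 9.01 and 9.61. The Actb control probe sets, whose 3' signal minus 5' signal is a measure of RNA integrity, gave 2.32 in wild type pool 1, 2.81 in wild type pool 2 and 3.13 and 2.95 in the deficient pools. The same measure for Gapdh set the pools less apart, at 2.40 and 2.58 in the wild type and 2.79 and 2.50 in the deficient pools. The part of these differences in the GTPase values was not tested.

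The remaining interferon-inducible GTPases on a list of 19 had a value for 6 genes, of which 5 were below 0, with a median of -0.33. The IRG gene Gm4951 read 6.81 and 6.57 against 8.61 and 7.75, wild type second (log2 difference -1.49, SE 0.31, limma adjusted p = 0.761). Gbp2b, a neighbour of Gbp2 and Gbp3, differed by -0.74 (SE 0.33) and the IRG gene Ifi47 by -0.40 (SE 0.18), both with the groups apart, and the limma adjusted p was 0.802 for each. Irgc1, an IRG gene that lacks interferon control, lay on the other side at 0.29 (SE 0.16). Probe sets that name several genes, such as those shared by near-identical family members, were not used.

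Upstream of the GTPases, the interferon genes and the cytokines that induce them had a median of 0.000819, with 5 of 9 above 0. The interferon genes Ifng, Ifnb1, Ifna2, Ifna4 and Ifna5 read below every array median (5.94 to 6.02). Without detection calls, the differences of such dim genes do not show whether interferon expression changed. Il18 and Il12a, the brightest on the list, were lower in the deficient pools with the groups apart. Interferon gamma itself (Ifng) read 3.49 and 3.49 in deficient and 3.38 and 3.40 in wild type HSC, values named after they were seen. The members with the smallest p were Il18 (-0.40, SE 0.18), Il12a (-0.28, SE 0.15), Ifna2 (-0.29, SE 0.16) and Ifna5 (-0.15, SE 0.14). Interferon receptors, JAK kinases and STATs had 6 of 9 below 0 and a median of -0.01. Jak1, the kinase shared by both interferon receptors, differed by -0.34 (SE 0.15), Jak2 by 0.26 (SE 0.16), Ifnar1 by -0.17 (SE 0.15) and Tyk2 by -0.08 (SE 0.14). A dimmer probe set had the opposite sign for Jak1 (0.04, with a further one at -0.48), Jak2 (-0.19) and Tyk2 (0.25).

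Among 9 interferon transcription factors, 6 were below 0 with a median of -0.11, and 3 of them were lower at an unadjusted p under 0.05, against 4.04% of all genes. Irf1, the factor that binds the ISRE of GBP promoters after interferon gamma, read 10.03 and 10.18 in deficient against 11.04 and 10.44 in wild type HSC, 1.56-fold lower (log2 -0.64, SE 0.24, limma adjusted p = 0.785). Batf2, an interferon gamma-induced leucine zipper factor, read 6.72 and 6.87 against 7.93 and 7.37 (log2 -0.86, SE 0.23, limma adjusted p = 0.761). Nlrc5, the transactivator of MHC class I genes, read 9.19 and 9.15 against 10.11 and 9.56 (log2 -0.67, SE 0.22, limma adjusted p = 0.761). For these 3 genes, those of smallest p among the 9, the groups did not overlap and wild type pool 1 was again the highest. Against wild type pool 2 alone they differed by -0.34, -0.57 and -0.39. The groups overlapped for every other factor on the list, while 18.5% of all genes had the deficient pools below both wild type pools. Wild type pool 1 was the highest for 6 of the 9, against 26.0% of all genes. Irf8, which has roles in myeloid fate, differed by 0.23 (SE 0.23) with overlapping groups, and its dimmer probe set by -0.32.

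Genes of MHC class I antigen processing, a second set induced by interferon gamma, were below 0 for 11 of 11 with a median of -0.33. The smallest p belonged to the proteasome activator gene Psme1 (-0.35, SE 0.15), the class I heavy chain gene H2-K1 (-0.49, SE 0.23), the peptide loading gene Tapbp (-0.78, SE 0.37) and the light chain gene B2m (-0.33, SE 0.16). The H2-K1 probe sets have _x_at names and may also read other class I genes, and a dim Tapbp probe set differed by 0.06. The groups were apart, with the deficient pools lower, for 6 of the 11, against 18.5% of all genes, and wild type pool 1 was the highest for 8, against 26.0%. Against wild type pool 2 alone the median was -0.17.

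Antiviral interferon-stimulated genes, most of which respond strongly to type I interferon, had 19 of 27 below 0, with a median of -0.17. At an unadjusted p under 0.05 there were 5 lower and 1 higher, against 4.04% and 2.19% of all genes. Trim21, an antibody receptor of the cytosol, differed by -0.50 (SE 0.15), Oasl2 by -0.70 (SE 0.24) and Parp14 by -0.52 (SE 0.19), while Ifi27l2a read 8.72 and 7.77 in the deficient pools against 6.27 and 7.11 (log2 1.55, SE 0.41, limma adjusted p = 0.761). A dimmer Parp14 probe set differed by 0.00836. The interferon gamma-induced chemokine genes Cxcl9 and Cxcl10, named after their values were seen, differed by -0.92 and -0.97 with overlapping groups, since pool 1 was the higher in both groups.

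**Figure D3:**
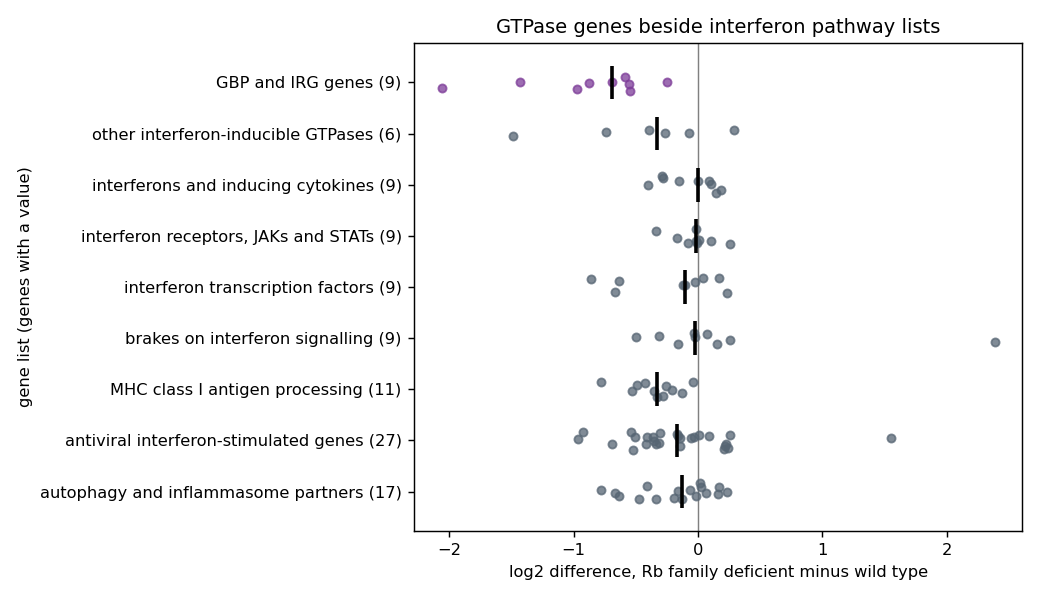
Log2 difference between Rb family deficient and wild type pools (horizontal axis) for each gene (points) of the GTPase members and 8 interferon pathway lists (rows), with a bar at each median. All 9 GTPase points and all 11 MHC class I points lie left of 0, and the point at 2.39 among the brakes is Socs3.

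Of the brakes on interferon signalling, 4 of 9 were above 0 with a median of -0.02. Socs3, which inhibits receptor-bound JAKs mainly downstream of gp130 cytokines, differed by 2.39 (SE 0.16, limma adjusted p = 0.326), the smallest adjusted p of all genes. That probe set has an _x_at name, and the one Socs3 probe set without such a name differed by 0.83 (SE 0.16). Socs1, the principal brake on interferon gamma and named after its value was seen, read 6.34 and 5.77 in deficient and 6.05 and 6.38 in wild type HSC. Ptpn6 (-0.50, SE 0.21), Pias1 (0.25, SE 0.17) and Usp18 (-0.32, SE 0.28) followed, and the next brightest Pias1 probe set differed by -0.30.

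GBPs and IRGs act with the autophagy conjugation machinery and with inflammasomes. Of 17 such partner genes 11 were below 0, with a median of -0.13. The inflammasome protease gene Casp1 differed by -0.47 (SE 0.16), the DNA sensor gene Aim2 by -0.64 (SE 0.25), the pore protein gene Gsdmd by -0.41 (SE 0.17) and the autophagy gene Gabarapl1 by -0.78 (SE 0.36). The groups were apart with the deficient pools lower for 7 of the 17, against 18.5% of all genes. By limma 0 genes in any of the 8 lists passed at an adjusted p under 0.05 over all genes, while at an unadjusted p under 0.05 there were 11 lower and 2 higher of the 97 measured, against 4.04% and 2.19% of all genes.

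**Figure D4:**
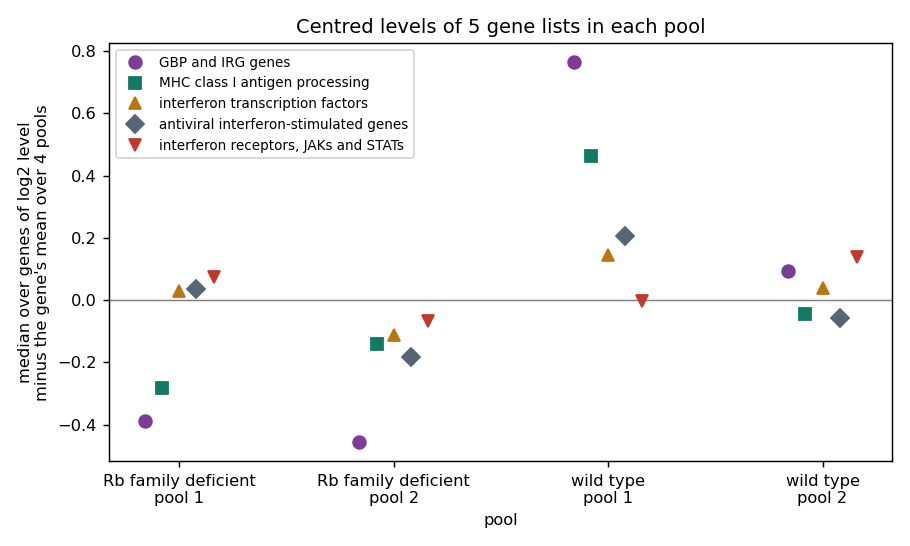
Median over the genes of each of 5 lists of the log2 level minus the gene's own mean over the 4 pools (vertical axis), by pool (horizontal axis), with 1 symbol per list. The GTPase genes lie at -0.39 and -0.46 in the deficient pools, 0.76 in wild type pool 1 and 0.09 in wild type pool 2, and the MHC class I genes at -0.28, -0.14, 0.46 and -0.05 in the same order.

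The members' mean profile over the 4 pools, each gene centred on its own mean, stood at -0.39 and -0.49 with the Rb family deleted and at 0.79 and 0.09 in wild type HSC. Single members correlated with this mean, which includes them, at a Pearson's r from 0.862 for Irgm1 to 0.999 for Irgm2. Among the 1257 other genes whose values spanned at least 1 on the log2 scale, the profiles most like it were those of Otud3 (r = 0.996), Adi1 (r = 0.996), Zfp719 (r = 0.996), Creb5 (r = 0.995) and Spr (r = 0.994). Gm4951, the IRG gene above, had r = 0.992. With 4 pools an r above 0.95 was reached by 54 of these genes, and these values only describe the same 4 arrays.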

How the data were processed

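Expression was measured on 4 Affymetrix arrays. The authors deposited 1 log2 value per probe set and array, summarised by RMA, with limma also listed in the submitters' processing notes and no settings for either. That the scale is log2 was inferred from the range, 2.65 to 14.9. Because RMA makes the arrays' distributions alike, it would hide a shift in RNA content per cell, and it shrinks folds at low signal. No detection calls were used, so presence above background is not assessed. Of 45101 probe sets, 34945 had 1 gene symbol in the platform annotation of 2016, 932 had several, 9160 had none listed and 64 were controls. Symbols were updated by Entrez ID with the RefSeq table of GRCm38.p6 (34741 matched). Differences are Rb family deficient minus wild type from limma 3.58.1 (R 4.3.3, lmFit and eBayes, no block, no filter), adjusted by Benjamini-Hochberg over 18193 genes, threshold 0.05. The SE is limma's moderated one, and that of a gene's other probe sets is from a second fit over the 34945 probe sets. The code was tested on simulated data.

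The members and lists were chosen with earlier results of these data known. Named genes are the members, Rb1, Rbl1, Rbl2, Irf1 and a further gene that is not reported here, up to 4 genes of smallest p per pathway list, and the 5 genes most like the members' mean profile. Others are said to be named after their values were seen, or are marker genes, and Gm4951's likeness was also picked in that way. Of the others in that rule, Rbl1 is given with Rb1 and Rbl2 above. Alternatives were probe sets averaged per gene, probe sets with a plain _at name first, median centring, and a filter on genes below the median level. Further ones were an intensity trend in the prior, the replicate number as a block, and each pool left out. A plain name has no _a_at, _s_at or _x_at ending.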

Additional observations from a re-analysis of the deposited data

How the results depend on the processing

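In each alternative run, limma passed 0 genes in either direction at the adjusted threshold. The median difference over the 9 measured members stayed below 0. It was -0.72 with probe sets averaged per gene, -0.74 with plain _at probe sets first and -0.63 with median centring. With a pool left out it ran from -1.20 (wild type pool 2 out) to -0.44 (wild type pool 1 out). The dim filter, the intensity trend and the blocks cannot move a difference. Under the other settings 62 of 63 recomputed member differences kept their sign. The exception was Gbp3, which ran from -1.24 (wild type pool 2 out) to 0.0644 (wild type pool 1 out). Gbp7 was at -0.33 with its probe sets averaged.

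Some list medians near 0 changed sign. That of the interferons was -0.34 with the filter on dim genes, where it rested on Il18 and Il12a. It ran from -0.20 to 0.11 with a pool left out. That of receptors, JAKs and STATs was 0.0272 with probe sets averaged and 0.0419 with median centring, and ran from -0.15 to 0.0767. That of transcription factors ran from -0.0935 to 0.0124. That of the brakes was 0.0307 with median centring and 0.0246 with the dim filter, and ran from -0.15 to 0.13. The dim filter changes which genes a list holds, and median centring shifts every difference by the same amount. The cause of the other changes was not tested. Medians of the MHC class I genes (-0.67 to -0.17), the other GTPases (-0.52 to -0.16), the antiviral genes (-0.35 to -0.00248) and the partners (-0.16 to -0.0827) stayed below 0 with any pool left out.

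Counts at an unadjusted p under 0.05 ran from 244 to 689 higher and from 317 to 1082 lower with a pool left out. The excess of lower genes (399 higher and 735 lower) turned to 601 higher and 530 lower with median centring, and the counts were 176 higher and 408 lower with the dim filter. With the replicate number as a block the members' median was -0.69 and 457 genes were lower at an unadjusted p under 0.05. The labels do not say that equal numbers pair the pools, and over genes the pool 1 minus pool 2 differences of both groups correlated at -0.19. A crossed pairing, chosen after seeing the data, gave 1151 lower at an unadjusted p under 0.05 and 0 past the adjusted threshold.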
